A study of Mus musculus with 79 samples.

Results

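Transcripts of the insulin-like growth factor (IGF) system were followed through mouse peripheral nerve repair that was performed either at once or after a delay. The 9 genes were taken by symbol from the 23361 rows of each count table: the ligands Igf1 and Igf2, the receptor Igf1r and the binding proteins Igfbp2, Igfbp3, Igfbp4, Igfbp5, Igfbp6 and Igfbp7. All 9 were present in each table. In the model, a freshly cut common peroneal nerve was joined through a silicone conduit to the tibial nerve, which had been cut either in the same operation (immediate repair) or 8 weeks earlier (delayed repair), with its end stitched to the quadriceps during the wait. Animals of immediate repair had a sham opening of the same site 8 weeks before. The 79 libraries came from 32 male and female animals, 16 per repair. The distal tibial stump was taken at day 5 after repair (7 immediate and 9 delayed libraries), as its cell type label and title say, although its tissue label names the bridge. Macrophages were sorted from the regenerative bridge inside the conduit at day 5 (8 immediate, 9 delayed) and at day 14 (8 immediate, 7 delayed). Schwann cells were sorted from the same bridges at day 5 (7 immediate, 9 delayed) and day 14 (8 immediate, 7 delayed). Both repairs carry a nerve injury and a graft, and no uninjured nerve was analysed here. Sorting relied on mice with GFP under the human S100β promoter, C57BL/6J mice were also used in the study, and the labels do not give the strain of each animal. Schwann cells were gated as GFP-positive cells lacking the other lineage markers, so that gate follows the activity of a transgene promoter and not a Schwann cell transcript. Bridges were not pooled, and each sorted library was made from 1000 cells.

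IGF1 and IGF2 are small secreted growth factors that signal through the receptor tyrosine kinase IGF1R, and in nerve they act on neurons, Schwann cells and denervated muscle. Macrophages in injured tissue are a known source of IGF1. The secreted binding proteins IGFBP2 to IGFBP6 hold the ligands with high affinity, which can block them, carry them or release them when proteases cut the binding protein, whereas IGFBP7 is a relative with low affinity for IGFs that is deposited in matrix.

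Igfbp2 and Igfbp5 were the pair that differed between repairs in the stump, and they are neighbours in the genome. In GRCm38, Igfbp2 lies at chr1:72824503-72852474 on the plus strand and Igfbp5 at chr1:72857932-72874884 on the minus strand, tail to tail, with 5457 bases between their ends. Igf1 lies at chr10:87858265-87937042 and Igf1r at chr7:67952827-68233668. Igf2 (chr7:142650766-142666816, minus strand) lies 72622 bases from H19, a non-coding gene that is imprinted together with it. Igfbp3 (chr11:7206086-7213923), Igfbp4 (chr11:99041244-99054392), Igfbp6 (chr15:102144362-102149511) and Igfbp7 (chr5:77349240-77408041) stand apart from these. RefSeq promoter windows of GRCm38.p6 matched all 9 genes. RefSeq lists 2 start windows for Igfbp2. The 250 bases before its upstream start (chr1:72824230-72824479, plus strand) and those before the start of Igfbp5 (chr1:72874866-72875115, minus strand) are shown because these 2 genes moved the same way while facing each other with their 3′ ends. Capitals mark the letters GGGCGG (a GC box) and TATTTAA, each searched on both strands together with TATAAA, and the motifs were chosen after the sequences had been seen.
Igfbp2: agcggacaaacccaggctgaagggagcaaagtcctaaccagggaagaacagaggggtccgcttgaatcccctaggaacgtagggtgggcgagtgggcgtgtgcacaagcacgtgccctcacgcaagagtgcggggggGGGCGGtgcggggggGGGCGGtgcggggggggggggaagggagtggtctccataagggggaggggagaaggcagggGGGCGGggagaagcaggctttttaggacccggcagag
Igfbp5: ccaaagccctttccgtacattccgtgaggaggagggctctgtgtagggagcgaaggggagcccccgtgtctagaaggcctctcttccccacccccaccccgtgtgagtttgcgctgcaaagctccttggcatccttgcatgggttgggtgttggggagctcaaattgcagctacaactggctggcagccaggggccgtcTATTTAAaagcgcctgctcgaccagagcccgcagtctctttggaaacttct
The Igfbp2 window shown held 3 GC boxes and no TATTTAA or TATAAA, with a GC content of 67.2% and 14 CpG sites. The other Igfbp2 window (chr1:72825137-72825386, plus strand) held 0 GC boxes and no TATTTAA or TATAAA, with a GC content of 56.4% and 11 CpG sites. The Igfbp5 window held TATTTAA at 51 bases before the start and no GC box, with a GC content of 58.8% and 10 CpG sites. Of 32851 such windows, 32.7% held GGGCGG, 4.18% held TATTTAA and 12.4% held TATAAA. The median window had a GC content of 52.4% and 6 CpG sites. These matches describe letters and not bound sites.

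Library totals were 3898778 to 9212709 counts in the stump, 14928745 to 28499407 counts in macrophages and 11614940 to 30796823 counts in the sorted Schwann cells. Levels are given as CPM, counts scaled to library size with edgeR's TMM factors, and 3 counts correspond to 0.326 to 0.769 CPM in the stump and to 0.0974 to 0.258 CPM in the sorted cells. Macrophage libraries held Emr1 (F4/80) at 740 to 1556 CPM. In 4 of 15 day 14 macrophage libraries (delayed 4 and immediate 3, 4 and 7), however, the sum over 6 dendritic cell markers was above that over the macrophage markers, at 16617 against 10365 CPM in delayed library 4. Ccr7, a member of that dendritic cell list, stood at 0.167 to 25.1 CPM in these 4 libraries. The sorted Schwann libraries held Schwann cell genes, with a sum over 9 markers of 172 to 2978 CPM. Their most abundant markers, however, were dendritic cell genes. Cd74 stood at 8245 to 24092 CPM and Ccr7 at 2117 to 12699 CPM in all 31 of these libraries, and the sum over 6 dendritic cell markers was 14771 to 45745 CPM. Sox10, the defining transcription factor of Schwann cells, was under 10 CPM in delayed day 5 libraries 1, 3, 4 and 9. Because the markers go against the label, these libraries are called the Schwann fraction here. In the stump, skeletal muscle markers summed to 1946 CPM in delayed library 5 and to 207 CPM in delayed library 9, against 1.70 to 36.9 CPM in the others.

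Set against each other per kilobase of exon, the members stood in a different order in each tissue. In the stump after delayed repair, Igfbp7 was highest with a median of 488 CPM per kb, and its range did not overlap that of Igfbp4, the next in order. Igfbp4, Igfbp6, Igfbp5, Igfbp3, Igf1 and Igf2 followed in this order with overlapping ranges, from 130 CPM per kb for Igfbp4 down to 7.30 for Igf2. Igf1r followed at 7.27, within the range of Igf2, and Igfbp2 was lowest at 0.105. After immediate repair Igfbp5 stood first at 591 CPM per kb, with a range that overlapped that of Igfbp7 at 446. In macrophages of every group Igf1 was first and Igfbp4 second, with overlapping ranges. Their medians were 13.0 and 10.8 CPM per kb in immediate day 5 macrophages and 24.5 and 13.6 at day 14. In the Schwann fraction Igfbp7 was first in every group, and its median ran from 19.4 CPM per kb (delayed, day 5) to 288 (delayed, day 14). Igf2 and Igfbp2 were the lowest members in all sorted groups except macrophages at day 5, where Igfbp3 and Igfbp5 also had medians near 0. Since stump and sorted libraries were made and scaled separately, their levels are not compared.

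**Figure D1:**
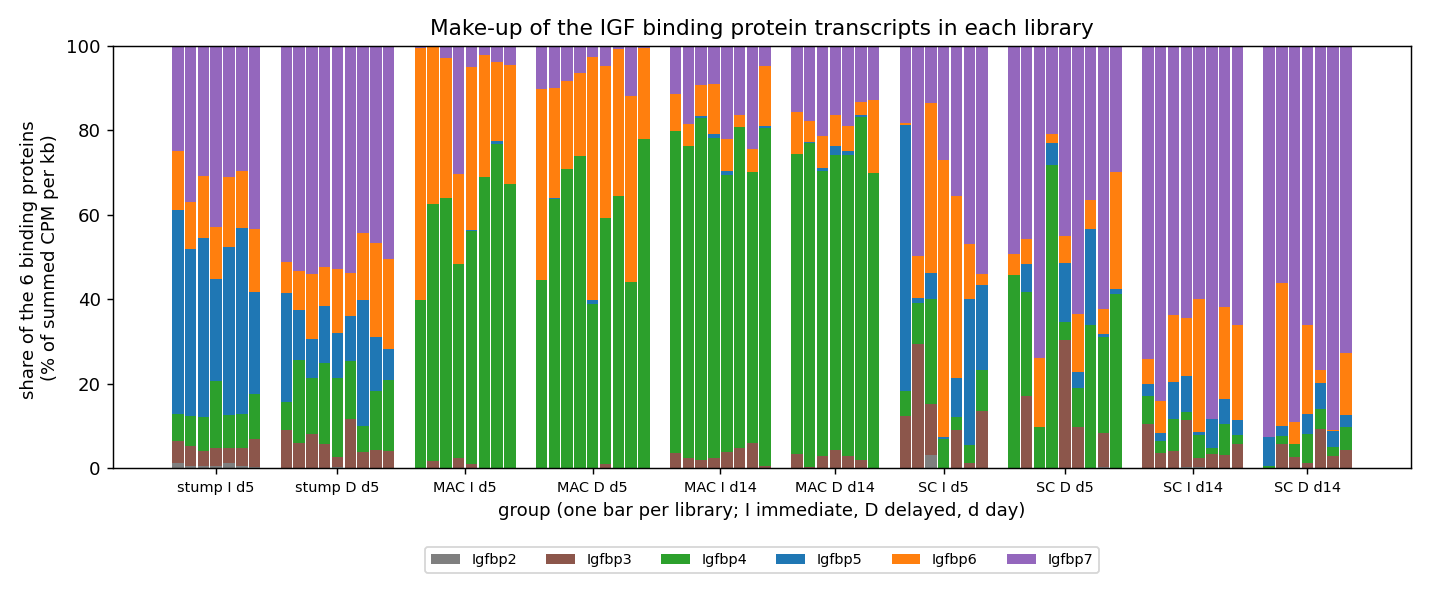
Share of each binding protein in the summed length-scaled level (CPM per kb of exon) of the 6 binding proteins, 1 bar per library, grouped by tissue, repair and day (I immediate, D delayed, d day, MAC macrophages, SC Schwann fraction). Igfbp5 had a median share of 39.6% in the immediate and 12.0% in the delayed stump, Igfbp4 had a median of 62.5% to 75.9% in macrophage groups, and Igfbp7 had a median of 65.2% and 76.8% in the Schwann fraction at day 14.

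The share of each binding protein in their summed length-scaled level shows the same contrast. In the stump, the Igfbp7 share had a median of 30.9% after immediate repair and 52.4% after delayed repair, and its 2 ranges did not overlap (24.8% to 43.4% against 44.3% to 54.0%). In macrophages, the Igfbp6 share had a median of 31.1% and 35.0% at day 5 (immediate and delayed) and 7.54% and 7.41% at day 14. These shares are descriptions, since a fall of 1 member raises the shares of the rest.

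The first comparison asked how the delay bore on the denervated distal stump 5 days after repair. Igfbp2 and Igfbp5 were lower after delayed repair, by 13.2-fold and 3.33-fold, and no member was higher. All 9 members were tested and 2 passed, against 26.2% of the 12229 genes tested (edgeR's quasi-likelihood test, Benjamini-Hochberg adjusted over all genes). The median log2 fold change was -0.081 over the members and 0.020 over all genes tested.

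**Figure D2:**
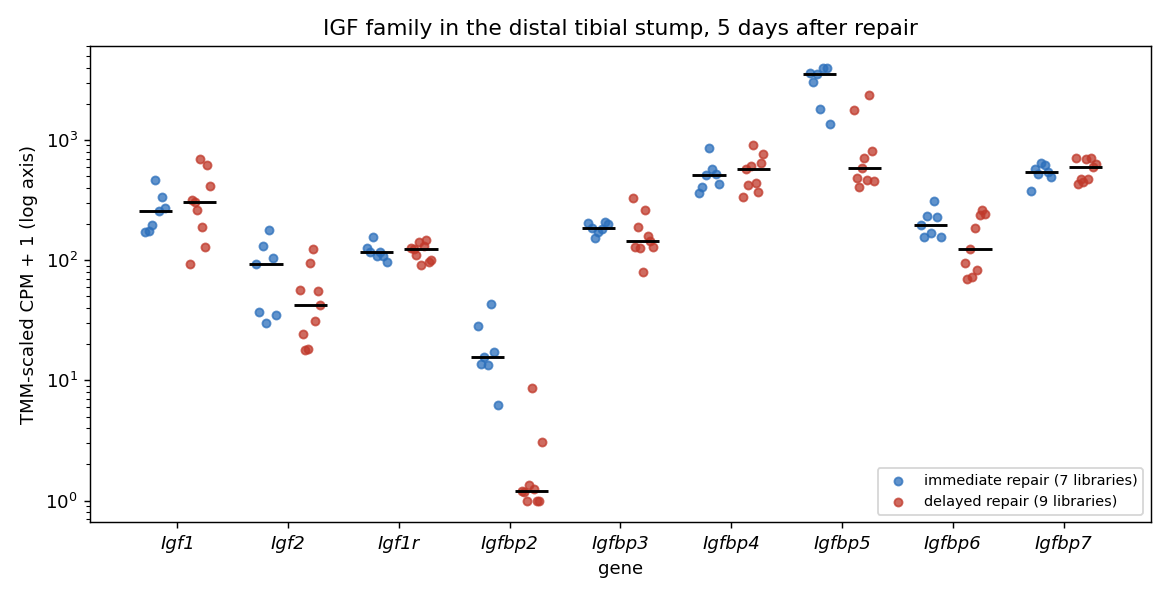
Level of each member in every distal stump library at day 5 (TMM-scaled CPM + 1, log axis), immediate repair in blue (7 libraries) and delayed repair in red (9 libraries), with black bars at the medians. Igfbp2 had a median of 14.6 CPM after immediate and 0.193 CPM after delayed repair, and Igfbp5 had 3547 and 579 CPM, while the groups lay over each other for the other members.

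Igfbp2, a binding protein made by many fetal and regenerating tissues, was nearly absent after the delay. Counts in delayed libraries 1 to 9 were 1, 1, 0, 2, 56, 1, 0, 0 and 18. Counts in the immediate libraries 1, 2, 3, 4, 6, 7 and 8 were 129, 96, 74, 101, 265, 144 and 41. Thus 7 of 9 delayed libraries were at or under 2 counts, and only delayed library 5, at 7.65 CPM, reached the range of the immediate libraries (5.28 to 42.2 CPM). The log2 fold change was -3.72 (SE 0.70, adjusted p = 0.00105 by edgeR). Delayed libraries 5 and 9, which held the highest Igfbp2 of their group, were also those with skeletal muscle transcripts. Without both of them, a check chosen after seeing the data, the log2 fold change was -6.88 (SE 0.64, adjusted p = 8.12e-06 by edgeR), and without library 5 alone it was -5.21. Leaving out the highest libraries of the lower group was bound to enlarge the difference, so these values add no support. Igfbp2 passed the minimum of 5 CPM in 6 libraries through the immediate libraries alone (7 of 7, against 1 of 9 delayed). The minimum itself thus favoured a difference in that direction.

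Igfbp5, a binding protein that also attaches to extracellular matrix, had the highest median of the members per kilobase in the immediate stump. It stood at 1367, 3547 and 3997 CPM there (lowest, median and highest of 7) and at 401, 579 and 2364 CPM after delayed repair (9 libraries). All 9 delayed libraries were below the immediate median, and 7 were below the lowest immediate library. The log2 fold change was -1.73 (SE 0.39, adjusted p = 0.00339 by edgeR), and without delayed libraries 5 and 9 it was -1.61 (adjusted p = 0.0108 by edgeR). The delayed libraries with the highest Igfbp5, library 7 at 2364 CPM and library 1 at 1762 CPM, also had the highest sums of Schwann cell markers of their group, 843 and 530 CPM. The immediate libraries with the lowest Igfbp5, library 8 at 1367 CPM and library 4 at 1799 CPM, had the lowest sums of theirs, 1694 and 1492 CPM.

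Schwann cell markers moved with both genes. All 9 were lower after delayed repair (median log2 fold change -2.67, against 0.020 over all genes tested), and their sum ran from 126 to 843 CPM in delayed and from 1492 to 3448 CPM in immediate libraries, with each of the 9 detected in both groups. Endothelial markers (4 of 5 higher), macrophage markers (2 of 7 higher), dendritic cell markers (1 of 6 higher) and mural cell markers (3 higher and 1 lower of 5) moved as well, while 0 of 7 fibroblast markers passed by edgeR. Their part in the differences of Igfbp2 and Igfbp5 was not tested. In whole tissue, fewer cells of a type and less RNA per cell cannot be told apart.

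**Figure D3:**
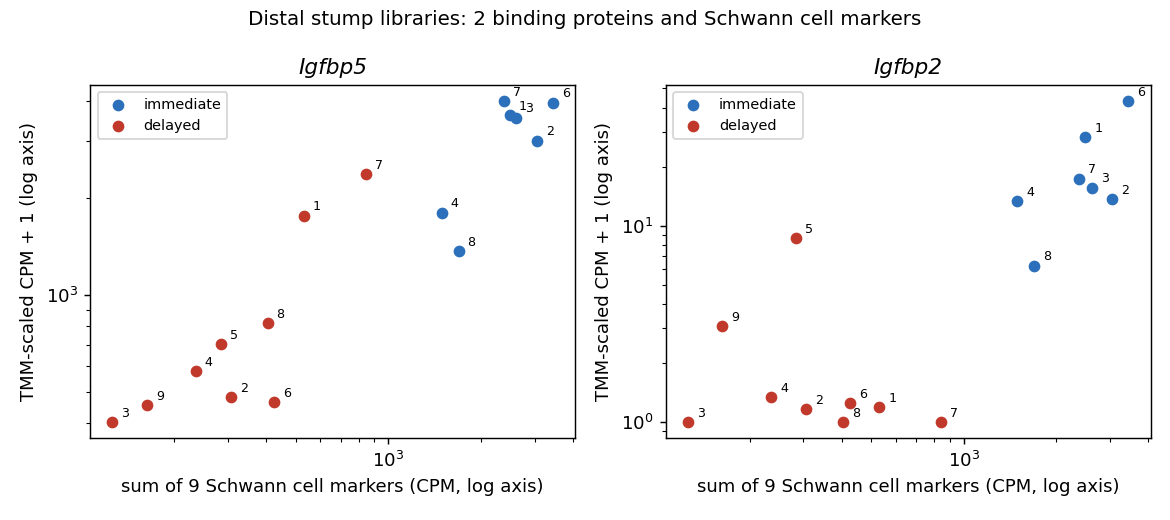
Igfbp5 (left) and Igfbp2 (right) in each distal stump library (TMM-scaled CPM + 1, log axis) against the sum of 9 Schwann cell markers in the same library (CPM, log axis), with replicate numbers beside the points (blue immediate, red delayed). Delayed libraries 7 and 1 lead their group in both Igfbp5 and the marker sum, and delayed libraries 5 and 9 lead it in Igfbp2 with marker sums of 284 and 163 CPM.

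The ligands did not pass in the stump. Igf1 stood at 171, 255 and 464 CPM after immediate and 91.2, 304 and 688 CPM after delayed repair, and the groups overlapped. Its log2 difference was 0.36 (SE 0.36, interval of 2 SE -0.35 to 1.08, adjusted p = 0.485 by edgeR). Igf2, the ligand of fetal growth, stood at 29.3, 92.2 and 178 CPM against 16.9, 41.8 and 124 CPM, with a log2 difference of -0.73 (SE 0.46, interval -1.66 to 0.19, adjusted p = 0.255 by edgeR). Of the exon bases of Igf2 in GENCODE, 62.8% are shared with the annotated gene Gm49394 on the same strand. Whether Gm49394 was among the gene models counted was not checked, so any effect on the counts of Igf2 is not known. H19, its imprinted neighbour, had a log2 difference of -0.50 (SE 0.32, adjusted p = 0.262 by edgeR), with 369 to 836 CPM after immediate and 143 to 821 CPM after delayed repair.

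The receptor and the other binding proteins were close between repairs. Igf1r was the steadiest member, at 95.5 to 154 CPM in immediate and 89.8 to 146 CPM in delayed libraries, and its log2 difference of 0.045 had an interval of -0.20 to 0.29. Igfbp7 had a log2 difference of 0.13 with an interval of -0.14 to 0.40, over 374 to 641 and 429 to 709 CPM. Igfbp4, the main binding protein cut by PAPP-A, had 0.13 (interval -0.29 to 0.55), and Igfbp3, the main carrier of IGF in serum, had -0.081 (interval -0.53 to 0.37). Igfbp6, which prefers IGF2, had -0.41 (interval -0.99 to 0.17), and 5 of 9 delayed libraries were below its lowest immediate library at 154 CPM. These 5 intervals leave out changes of the size seen for Igfbp5.

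Around the members, 3 lists of pathway genes were counted in the stump. Of 22 signalling genes tested, 5 were higher and 1 lower after delayed repair (median log2 fold change 0.10, against 0.020 over all genes tested), a share close to the 26.2% called over all genes. Socs2, a feedback inhibitor of growth hormone and cytokine receptors, rose by 0.73 (SE 0.10, adjusted p = 7.62e-05). Pik3r1, a regulatory subunit of PI3 kinase, rose by 0.31 (SE 0.09, adjusted p = 0.0129), and Grb14, an adaptor that inhibits insulin-type receptors, fell by 1.07 (SE 0.23, adjusted p = 0.00279; all by edgeR). Of 6 binding-protein proteases and inhibitors tested, 2 were higher (median 0.70). Pappa, which encodes PAPP-A, rose by 0.85 (SE 0.26, adjusted p = 0.0215), and Stc1, a stanniocalcin that inhibits PAPP-A, rose by 0.80 (SE 0.28, adjusted p = 0.039; both by edgeR). Of 4 further receptors and carriers tested, 0 passed by edgeR.

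Macrophages of the bridge were compared between repairs next. No member was called at either day. Of 3 members tested at day 5, 0 passed, and 0 of them had an unadjusted p under 0.05, against 0.0357% of 8409 genes called by edgeR. DESeq2 called 17 genes at day 5 and no member. At day 14, 3 were tested and 0 passed, against 0% of 8589 genes, with 189 genes at an unadjusted p under 0.05 and 0 by DESeq2.

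Igf1 had the highest median per kilobase in these cells, with a range that overlapped that of Igfbp4. At day 5 it stood at 70.1, 129 and 313 CPM after immediate and 78.2, 176 and 467 CPM after delayed repair, a log2 difference of 0.59 (SE 0.36, interval -0.14 to 1.32, adjusted p = 0.979 by edgeR). Delayed libraries 5 and 8, at 454 and 467 CPM, were above every immediate library, and the groups otherwise overlapped. At day 14 it stood at 126, 243 and 356 CPM against 187, 232 and 378 CPM, with a difference of 0.034 (SE 0.21, interval -0.38 to 0.45). Igfbp4 stood at 16.3 to 90.4 CPM over all 32 macrophage libraries, and its difference between repairs was -0.43 (SE 0.29) at day 5 and -0.14 (SE 0.27) at day 14. Igf1r stood at 1.37 to 7.07 CPM, with a difference of -0.10 (SE 0.19) at day 14. Igfbp2 had 0 counts in all 32 libraries, and Igf2 did not exceed 0.200 CPM in any of them.

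**Figure D4:**
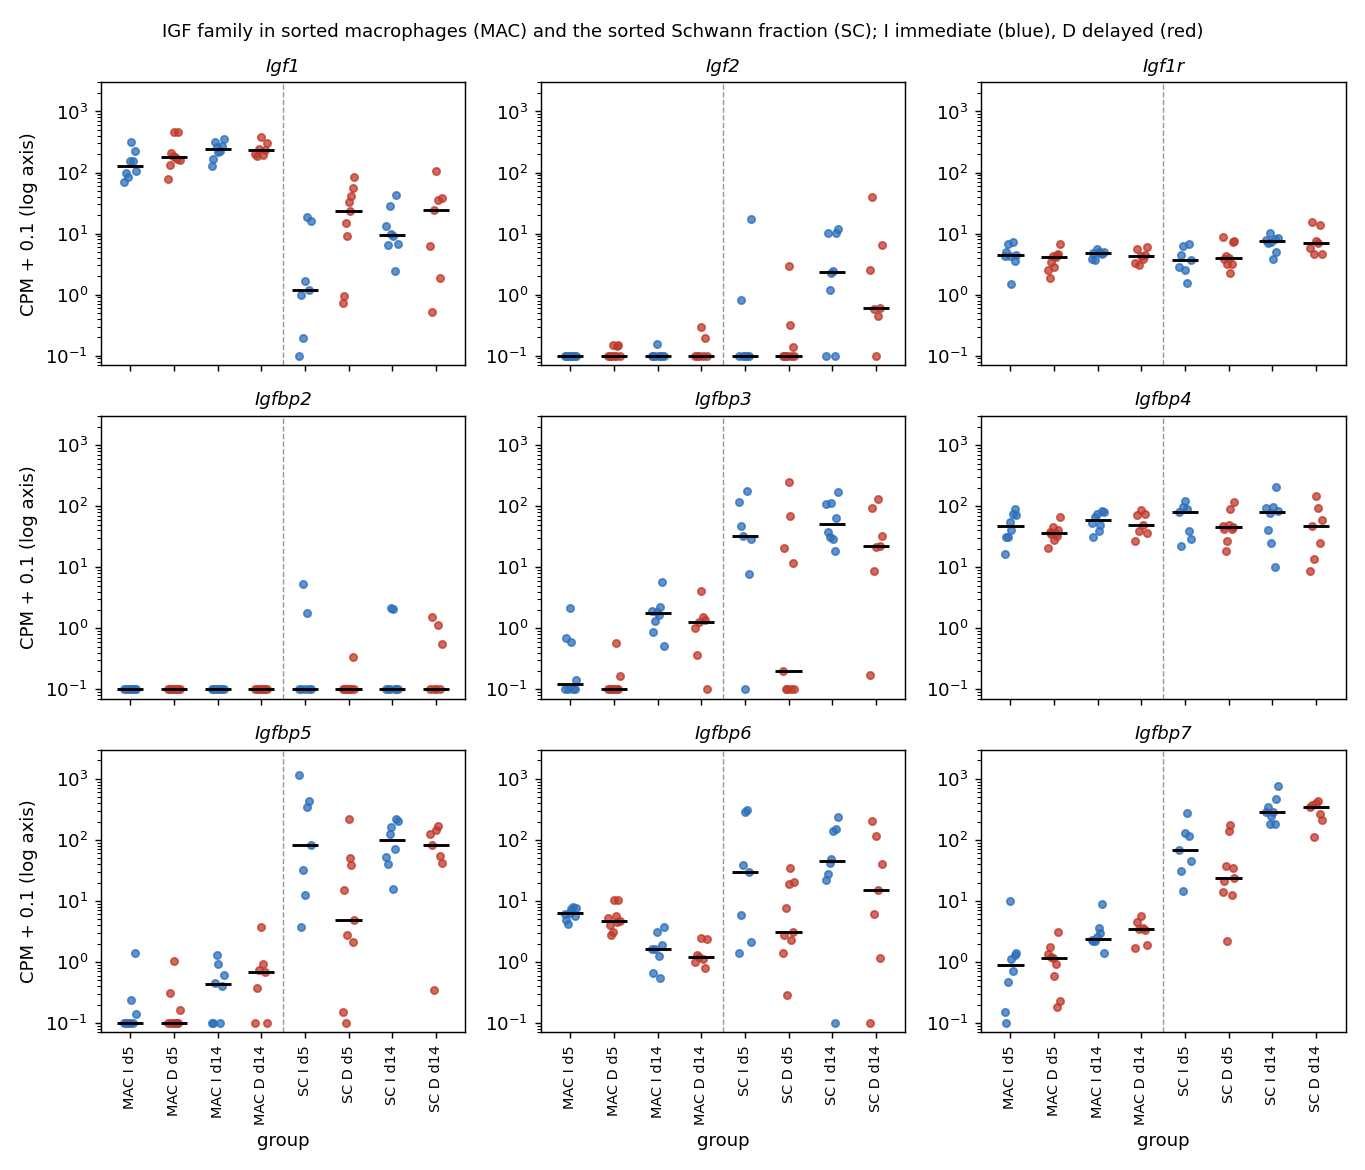
Level of each member in every sorted library (CPM + 0.1, log axis): macrophages (MAC) left and the Schwann fraction (SC) right of the dashed line, immediate repair (I) in blue and delayed repair (D) in red at days 5 and 14, with black bars at the medians. Igf1 was lower in the Schwann fraction than in macrophages, Igfbp6 in macrophages was lower at day 14, and Igfbp3, Igfbp5 and Igfbp6 spread over more than 2 powers of 10 within the Schwann fraction.

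Between day 5 and day 14, Igfbp6 fell in macrophages after immediate repair. It went from 4.09, 6.22 and 7.80 CPM to 0.455, 1.55 and 3.58 CPM, and the 8 libraries of day 14 were all below the 8 of day 5. The log2 fold change was -1.82 (SE 0.35, adjusted p = 0.00211 by edgeR), and Igfbp6 was the 1 member of 4 tested that passed, against 11.3% of 8507 genes. It met the minimum of 5 CPM through the day 5 libraries alone, so the minimum itself favoured a fall. Leaving out immediate day 5 library 1, 4, 5, 6, 7 or 8 took it under that minimum. No member was then called, except that Igf1 passed without library 5. Igfbp6 was called in the other 10 refits that left out 1 library (log2 fold change -2.07 to -1.68).

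After delayed repair Igfbp6 did not reach the minimum. It stood at 2.63, 4.66 and 10.2 CPM at day 5 and 0.684, 1.09 and 2.33 CPM at day 14, and the 2 days did not overlap. With edgeR's own filter in place of the minimum its log2 fold change was -2.02 (SE 0.36, adjusted p = 0.00241 by edgeR). Of the 2 members tested under the minimum, Igf1 (0.15, SE 0.31) and Igfbp4 (0.54, SE 0.25, adjusted p = 0.213), 0 passed by edgeR and 0 by DESeq2, against 6.33% of 8529 genes, and 1 had an unadjusted p under 0.05. After immediate repair, Igf1 had a difference of 0.72 (SE 0.29, adjusted p = 0.128 by edgeR) between days. Without immediate day 5 library 5, which had the highest Igf1 of its group at 313 CPM, it was 0.96 (adjusted p = 0.0255 by edgeR).

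Markers moved between the days in the same macrophage libraries. Of 4 dendritic cell markers tested, 3 rose in both repair groups, namely Cd74 (2.02 on the log2 scale after immediate repair), H2-Ab1 (1.97) and Itgax (2.47). The other, Ccr7, pointed down, by -1.45 after immediate and -0.98 after delayed repair, and passed in neither by edgeR. Flt3 and Zbtb46 were under the minimum. The summed level of the 6 listed markers went from 1191 to 3645 CPM at day 5 to 7629 to 13690 CPM at day 14 after immediate repair. Macrophage markers fell in 4 of 7 cases after immediate and in 1 of 7 after delayed repair, and their sum was 12493 to 16692 CPM at day 5 and 7891 to 11710 CPM at day 14 after immediate repair. The endothelial marker Pecam1 (-1.17 after immediate and -1.64 after delayed repair) and the perineurial marker Slc2a1 (-0.74 and -0.56) also fell in both repair groups by edgeR, as 1 of 2 and 1 of 1 tested from their lists. The part of these markers in the Igfbp6 result was not tested. Among the pathway lists, Adam9, a membrane protease, was lower at day 14 in both repair groups, by -0.42 (SE 0.09, adjusted p = 0.00651) and -0.44 (SE 0.10, adjusted p = 0.0132; both by edgeR). It was 1 of 2 proteases tested. Foxo1, a transcription factor restrained by IGF signalling, was the 1 gene called of 15 signalling genes after immediate repair (-0.52, SE 0.15, adjusted p = 0.0259 by edgeR), and 0 of 15 were called after delayed repair.

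In the Schwann fraction no member was called between repairs. At day 5, 6 members were tested and 0 passed, against 0% of 9604 genes. By edgeR, 504 genes had an unadjusted p under 0.05, and DESeq2 called 14 genes and no member. At day 14, 7 members were tested and 0 passed, against 0% of 10226 genes, with 369 genes at an unadjusted p under 0.05 and 3 by DESeq2.

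The levels of the binding proteins spread widely between single bridges of this fraction. Igfbp5 at day 5 stood at 3.63, 83.2 and 1148 CPM after immediate and 0, 4.76 and 219 CPM after delayed repair. Its log2 difference of -3.01 (SE 1.33, unadjusted p = 0.037, adjusted p = 0.920 by edgeR) did not pass. Igfbp6 stood at 1.33, 30 and 305 CPM against 0.192, 2.99 and 34.6 CPM, a difference of -3.29 (SE 1.11, unadjusted p = 0.00871, adjusted p = 0.839 by edgeR) that did not pass either. For each of these genes 8 of 9 delayed libraries were below the immediate median, and the ranges overlapped. Igf1 stood at 0, 1.09 and 18.5 CPM against 0.616, 23.1 and 84.4 CPM, with 5 of 9 delayed libraries above the highest immediate library (2.37, SE 1.18, adjusted p = 0.921 by edgeR). Igfbp3 was at 0 counts in 4 of 9 delayed and 1 of 7 immediate libraries and reached 246 and 178 CPM in others (-0.61, SE 1.53).

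Marker sums differed between the same day 5 libraries. The macrophage sum was 170, 444 and 1947 CPM after immediate and 233, 1676 and 4976 CPM after delayed repair, and delayed library 9 had both the highest Igf1 and the highest macrophage sum. The Schwann cell sum was 244, 620 and 1364 CPM against 172, 272 and 503 CPM, and the fibroblast sum was 245, 1592 and 8003 CPM against 18.1, 328 and 3128 CPM. Immediate library 1 had the highest Igfbp5 and the highest Schwann cell and fibroblast sums of its group. None of the marker genes tested passed between repairs by edgeR (0 of 7, 0 of 9 and 0 of 4), and their part in the values of the members was not tested. At day 14 the differences between repairs ran from -0.68 (Igfbp3, SE 0.78) to 1.04 (Igf1, SE 0.83), and the narrowest was that of Igfbp7 at -0.18 (SE 0.33, interval -0.84 to 0.47).

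Igfbp7 was higher at day 14 than at day 5 in the Schwann fraction after delayed repair, by 6.12-fold. It went from 2.12, 23.4 and 173 CPM to 110, 348 and 426 CPM, and 6 of 7 day 14 libraries were above the highest day 5 library. The log2 fold change was 2.61 (SE 0.65, adjusted p = 0.0252 by edgeR). It was the 1 member of 7 that passed, against 8.09% of 9961 genes. Without delayed day 14 library 6 the adjusted p was 0.0506 (log2 fold change 2.52), and without the 4 day 5 libraries under 10 CPM of Sox10 it was 0.133 (log2 fold change 2.02, both by edgeR). That last fit called 47 genes in all, against 806 with every library. After immediate repair Igfbp7 went from 14.3, 67.4 and 273 CPM to 182, 290 and 750 CPM, and its 1.85 (SE 0.53, adjusted p = 0.0591 by edgeR) did not pass. There, 0 of 7 members tested passed, against 3.92% of 10016 genes, and 1 had an unadjusted p under 0.05. DESeq2 called Igfbp7 (adjusted p = 0.00293), as did edgeR with sex as a covariate (adjusted p = 0.0405) and without immediate day 5 library 5 (adjusted p = 0.012). Igfbp7 shares 85 exon bases, 7.03% of its exon length, with Polr2b on the other strand, and the kit used for sorted cells does not keep strand.

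Other markers moved beside Igfbp7. The sum over the Schwann cell markers went from 172, 272 and 503 CPM to 535, 1692 and 2978 CPM after delayed repair. The fibroblast sum had a median of 328 CPM at day 5 and 3382 CPM at day 14 after delayed repair, and of 1592 and 4794 CPM after immediate repair, with no fibroblast marker past the threshold by edgeR. The endothelial sum had medians of 88.5 and 83.2 CPM after delayed repair. The sort removed cells stained for CD31, an endothelial marker, or Thy1.2, used as a fibroblast marker. The part of these levels in the rise of Igfbp7 was not tested. The remaining members did not pass between days, from -1.39 (Igfbp5, SE 0.90) to 1.44 (Igf1, SE 1.08) after immediate and from 0.10 (Igf1, SE 0.94) to 2.48 (Igfbp6, SE 1.12, adjusted p = 0.167 by edgeR) after delayed repair. Igf1r, at 3.68 to 15.1 CPM at day 14, differed by 0.92 (SE 0.47) and 0.78 (SE 0.40) in the 2 repairs without passing. Of 19 signalling genes, Pik3r1 was lower at day 14 after immediate repair (-1.71, SE 0.25, adjusted p = 0.00278) and Akt2, a kinase of the insulin pathway, was higher after delayed repair (0.62, SE 0.14, adjusted p = 0.016; both by edgeR), and no other passed.

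**Figure D5:**
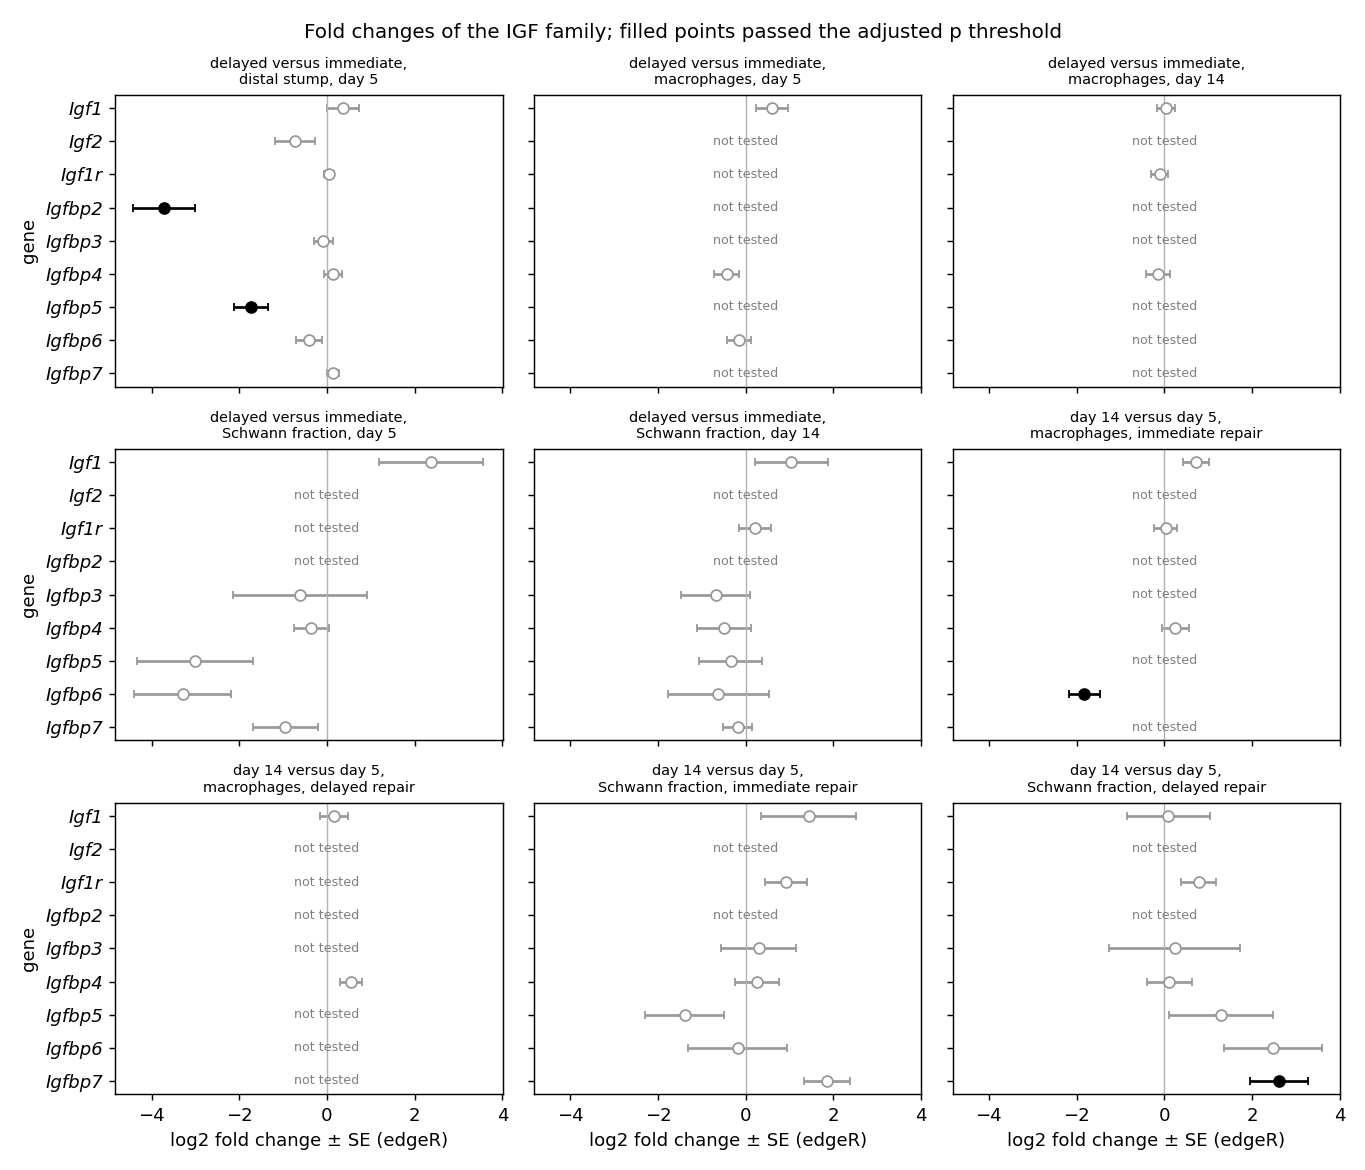
Log2 fold change with its SE (edgeR) of each tested member in 9 comparisons, with filled points for those past the adjusted p threshold and "not tested" for members under the minimum of 5 CPM in 6 libraries. Igfbp2 (-3.72) and Igfbp5 (-1.73) in the stump, Igfbp6 (-1.82) in immediate macrophages and Igfbp7 (2.61) in the delayed Schwann fraction were the 4 filled points.

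The 2 fractions sorted from the same bridge were compared within animals. Animal counts, medians and ranges use CPM scaled within each fraction, whereas the fit scaled both fractions together. Igf1 was higher in macrophages at both days, Igfbp3, Igfbp5 and Igfbp7 were higher in the Schwann fraction at both days, and Igf1r and Igfbp4 passed at neither. In a fit that kept the animal as a block, 4 of 7 members tested passed at day 5, against 64.4% of 10074 genes, and 5 of 7 at day 14, against 63.3% of 10596 genes. The members were thus called about as often as other genes.

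Igf1 was lower in the Schwann fraction in 16 of 16 animals at day 5 and 15 of 15 at day 14. Its medians over animals were 12.0 CPM in the Schwann fraction and 163 CPM in macrophages at day 5, and 9.65 and 232 CPM at day 14. The log2 differences were -5.11 (SE 0.70, adjusted p = 4.36e-06) and -4.65 (SE 0.49, adjusted p = 1.69e-07; both by edgeR). The ranges of both fractions overlapped at day 5 (0 to 84.4 against 70.1 to 467 CPM) and were apart at day 14 (0.418 to 106 against 126 to 378 CPM). Macrophage markers were lower in the Schwann fraction (7 of 7 at both days). Dendritic cell markers were higher there (6 of 6 at day 5, and 5 higher and 1 lower of 6 at day 14), as were Schwann cell markers (9 of 9 at both days). Fibroblast markers (3 of 5 at day 5 and 5 of 7 at day 14) and mural markers (1 of 1 and 2 of 3) were also higher. Of 3 perineurial markers, 2 were higher and 1 lower at both days. Endothelial markers were 1 higher and 1 lower of 2 at day 5, and 1 higher of 2 at day 14. The part of these markers in the differences of Igf1 and of the members below was not tested.

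Igfbp7 was higher in the Schwann fraction in every animal, by 5.45 (SE 0.65, adjusted p = 8.49e-07) at day 5 and 6.32 (SE 0.27, adjusted p = 2.3e-12; both by edgeR) at day 14. At day 14 the fractions were far apart, at 110 to 750 against 1.31 to 8.71 CPM. Igfbp5 was higher in 15 of 16 animals at day 5, by 9.35 (SE 0.60, adjusted p = 5.26e-10), and in 14 of 15 at day 14, by 7.25 (SE 0.77, adjusted p = 1.81e-07; both by edgeR). Igfbp3 was higher in 11 of 16 animals at day 5, by 7.90 (SE 1.33), and in 14 of 15 at day 14, by 4.51 (SE 0.69). Macrophage levels of Igfbp3 and Igfbp5 did not exceed 5.65 and 3.63 CPM in any library, with medians of 0 over animals at day 5, so their fitted folds depend on counts near 0. Igfbp6 was not called at day 5 (0.33, SE 0.73, adjusted p = 0.709) and was higher in the Schwann fraction at day 14 (4.01, SE 0.74, adjusted p = 0.00012; both by edgeR), and a test of the difference between days was not run. Without the animal block, Igfbp6 was called at day 5 as well (1.93, adjusted p = 0.0195 by edgeR). Igfbp3, Igfbp5 and Igfbp7 at both days, and Igfbp6 at day 14, met the minimum through the Schwann fraction, since macrophages alone did not reach it, so the minimum itself favoured a difference in that direction.

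Igf1r and Igfbp4 did not pass between the fractions. Igf1r differed by -0.18 (SE 0.26, interval -0.71 to 0.34) at day 5 and by 0.39 (SE 0.21, interval -0.031 to 0.81, adjusted p = 0.115 by edgeR) at day 14, when it was higher in the Schwann fraction in 13 of 15 animals. The latter was called by DESeq2 (adjusted p = 0.0456), without the animal block (adjusted p = 0.0385 by edgeR) and with library size scaling alone (adjusted p = 0.00555 by edgeR), and with that scaling the day 5 value was 0.060. Igfbp4 differed by 0.12 (SE 0.26, interval -0.41 to 0.64) and -0.46 (SE 0.30, interval -1.07 to 0.15). In CPM scaled within each fraction, Igfbp4 was higher in the Schwann fraction in 9 of 15 animals at day 14. Its medians were 59.8 against 52.9 CPM, whereas the fitted value was negative. Since the fit scaled both fractions together, the levels and the fit are not on the same scale, and no direction was read from either. Among other receptors, Igf2r, which clears IGF2, was lower in the Schwann fraction by -3.59 (SE 0.59) at day 5 and -2.58 (SE 0.26) at day 14. The endocytic receptor Lrp1 was lower by -2.66 (SE 0.20) and -2.97 (SE 0.17). Ghr, the growth hormone receptor, was higher by 6.40 (SE 1.13) and 5.40 (SE 0.61), and all 6 of these passed by edgeR. Of the signalling list, 9 were higher and 2 lower of 19 tested at day 5 (median 0.30, against -0.044 over all genes), and 10 were higher and 6 lower of 20 at day 14 (median 0.24, against 0.040). Over all genes 64.4% and 63.3% were called. Socs2 was the gene with the smallest p of that list at both days, at 7.18 (SE 0.37) and 6.27 (SE 0.38). Adam9 was lower at both days (-1.86, SE 0.14, and -1.73, SE 0.15), and the protease gene Htra1 was higher (3.23, SE 0.29, and 2.27, SE 0.31).

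A last test asked whether the effect of the delay changed between day 5 and day 14, which uses the same libraries as the comparisons above. In macrophages 4 members were tested and 0 passed, against 0.0223% of 8949 genes by edgeR, with Igf1 at -0.56 (SE 0.45). In the Schwann fraction 8 were tested and 0 passed, against 0% of 10923 genes, with 542 genes at an unadjusted p under 0.05 by edgeR. The members farthest from 0 there were Igf2 at 3.45 (SE 2.39), Igfbp5 at 2.68 (SE 1.57) and Igfbp6 at 2.67 (SE 1.65). Their intervals were wide enough to hold 0 and also changes of several powers of 2.

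Among all genes tested, those whose level followed a member most closely are given as a description by Spearman's rho, over libraries of 1 tissue or fraction. The mean log2 level of each group of repair and day was subtracted first, so differences between group means do not enter. The libraries still span a range of depths. Over the 16 stump libraries, Igf1 ran with Hpgd (0.968), Mfap2 (0.965) and Mfap4 (0.95), and its closest member was Igfbp4 (0.853). Igfbp5 ran with Tec (0.90), Plekha6 (0.888) and Trp53inp2 (0.885), and Igfbp2 with Srl (0.796), Trim35 (0.746) and Tsc22d1 (0.735). Igfbp7 had Chp1 (0.926) and the pericyte gene Rgs5 (0.897) nearest. Over the 32 macrophage libraries Igf1 ran with Tpcn1 (0.879), Anxa6 (0.853) and Tbxas1 (0.845). Over the 31 libraries of the Schwann fraction, Igfbp5 ran with Plekhb1 (0.862), Chadl (0.849) and Mxra8 (0.845), and Igfbp7 with Sdc2 (0.837), Sparc (0.831) and Ppic (0.789).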

How the data were processed

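Estimated counts per gene, as deposited by the authors in 3 tables (distal stump, macrophages, Schwann fraction), were used. Per the labels and methods, reads were trimmed with cutadapt 1.8, stump reads were cleared of rRNA, and reads were aligned to mm10 with TopHat2 2.1.1. Cufflinks 2.2.1 and Cuffnorm are also named, and the counting program is not given in the sources used here. Values that were not whole (0.998%) were rounded. Sorted cells were amplified with SMART-Seq, which keeps no strand, while stump libraries were rRNA-depleted and directional.

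Genes reaching 5 CPM in 6 or more of the libraries compared were tested with edgeR 4.0.16 (TMM, quasi-likelihood, Benjamini-Hochberg over all genes tested, threshold 0.05, R 4.3.3), within each tissue and day or repair. The Schwann fraction was compared with macrophages with the animal as a block (statmod 1.5.0 and limma 3.58.1 were loaded by edgeR). The standard error was the log2 fold change over the root of the F statistic, and intervals span 2 SE. DESeq2 1.42.0, other filters, library size scaling, sex, a replicate block, 1 fit of all 4 groups and leaving out each library were alternatives. The study's own test, cuffdiff, needs reads and was replaced by edgeR. The libraries of a group come from separate animals. Exon lengths and overlaps came from GENCODE for GRCm38, which may differ from the gene models counted. Tests were tried on simulated data first. The members, the named pathway genes (up to 3 per list with the smallest p past the threshold) and the lists were chosen with earlier results of these data known.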

Additional observations from a re-analysis of the deposited data

Results flagged for a closer look

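Of 67 combinations of member and group that were looked at, 5 (7.46%) had 1 library set apart from the rest by Dixon's test, and chance alone gives about 1 in 20. In macrophages of immediate repair, Igfbp7 was at 9.83 CPM in day 5 library 4, against 1.32 CPM in the next highest, and at 8.71 CPM in day 14 library 7, against 3.52 CPM. These 2 libraries also had the highest fibroblast marker sums of their groups, 325 and 841 CPM. In the Schwann fraction, Igf2 was at 16.9 CPM in immediate day 5 library 8, against 0.716 CPM in the next, and that library held the muscle transcript Acta1 at 50.6 CPM. Igfbp5 was at 0.245 CPM in delayed day 14 library 3, against 42.4 CPM in the next lowest, and that library had the lowest Sox10 (14.5 CPM) and the lowest Schwann cell sum (535 CPM) of its group. Igfbp6 had 0 counts in immediate day 14 library 6, against 21.6 CPM in the next lowest, with Sox10 there at 120 CPM. The part of these marker levels in the 5 values was not tested.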

How the results depend on the processing

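Of 1422 alternative values of 74 single-member results, 1369 kept direction and side of the threshold, 8 newly passed, 2 no longer passed and 43, of 21 results, changed sign. None of the reversed results had passed. The 2 stump calls (Igfbp2, Igfbp5) held under all alternatives, and the 4 and 5 calls between fractions held in every refit without 1 animal. The number of members called moved by over 1.5 times in 4 comparisons. Between fractions it moved less, to 3 (edgeR's filter, which dropped Igfbp3) or 5 (no animal block) from 4 at day 5, and to 6 (DESeq2, library size scaling or no animal block) or 7 (no filter) from 5 at day 14. For macrophages between days it was 0 to 1 without 1 library after immediate repair and 1 (edgeR's filter) or 2 (no filter) in place of 0 after delayed repair. For the Schwann fraction between days it was 1 after immediate repair with DESeq2 or sex (0 to 1 without 1 library), and after delayed repair 0 without libraries under 10 CPM of Sox10, a choice made after seeing the data, and 0 to 1 without 1 library. The cause was not tested, beyond the minimum that drops Igfbp6.

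Replicate numbers were not treated as pairs, and in no comparison did every same-numbered pair of libraries correlate above 0.1. That rule cannot exclude a pairing. In the stump r was -0.28 to 0.11, with 1 of 7 pairs above 0.1. Between repairs in macrophages, 7 of 8 pairs were above 0.1 at day 5 (median 0.26) and 6 of 7 at day 14 (median 0.25, with 5 of 7 libraries correlating best with their own number). This is a hint of a pairing that the labels do not state. Same-numbered libraries also share sex by the labels, and the part of sex in these correlations was not tested. With the replicate block, Igfbp2 and Igfbp5 in the stump were -6.79 and -1.82, both called, and the number of genes called was 2157 against 3202. A library without a same-numbered partner adds nothing to that contrast, so the block also took out delayed stump libraries 5 and 9. Signs turned under the block for Igf1 (-0.086) and Igfbp4 (-0.062) in the stump, for Igf1r (-0.033) between repairs in the Schwann fraction at day 14, and between days in that fraction for Igfbp5 (0.50) and Igfbp6 (1.62) after immediate and Igfbp4 (-0.070) after delayed repair. Without stump libraries delayed 5 and 9, Igfbp3 was 0.073 and Igfbp4 -0.072. Without Sox10-low libraries, Igfbp3 was 0.23 between repairs at day 5 and -0.62 between days after delayed repair, and the change of the Igf1r delay effect was 0.15. With sex as a covariate that change was 0.42 for Igfbp3 and 0.12 for Igfbp4. With library size scaling, Igfbp6 between days was 0.00017 and Igf1r between fractions at day 5 was 0.060. Leaving out 1 library at a time, values that changed sign ran in the stump Igf1r -0.018 to 0.12 and Igfbp3 -0.27 to 0.012, between repairs in macrophages at day 14 Igf1 -0.11 to 0.14, between repairs in the Schwann fraction at day 5 Igfbp3 -2.23 to 0.00597, between repairs in the Schwann fraction at day 14 Igf1r -0.011 to 0.32 and Igfbp7 -0.28 to 0.086. They also ran between days in immediate macrophages Igf1r -0.11 to 0.078, between days in the immediate Schwann fraction Igfbp3 -0.033 to 0.88, Igfbp4 -0.14 to 0.46 and Igfbp6 -0.63 to 0.46, between days in the delayed Schwann fraction Igf1 -0.69 to 0.49, Igfbp3 -0.34 to 1.84 and Igfbp4 -0.34 to 0.36, between fractions at day 5 Igfbp4 -0.00663 to 0.30.

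Igfbp2 in sorted cells, and Igf2, Igfbp3 and Igfbp5 in macrophages, had too few counts in most libraries to be tested under the minimum. Between repairs in the Schwann fraction at day 5, standard errors above 1 for Igf1, Igfbp3, Igfbp5 and Igfbp6 leave wide intervals. Groups held 7 to 9 animals. Day, repair and fraction comparisons share libraries and are not independent of each other.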

Other observations

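Several members were under the minimum of 5 CPM in 6 libraries in sorted cells, and their values without any filter are given as a description of low counts. In macrophages after delayed repair, Igfbp3 went from 0, 0 and 0.481 CPM at day 5 to 0, 1.18 and 3.97 CPM at day 14 (log2 fold change 4.30, SE 1.11, adjusted p = 0.035 by edgeR without a filter). The immediate group went from 0, 0.0213 and 2.08 CPM to 0.404, 1.67 and 5.65 CPM (2.22, SE 0.95, adjusted p = 0.167 by edgeR without a filter). Igfbp7 went from 0.0851, 1.08 and 2.96 CPM to 1.59, 3.32 and 5.57 CPM after delayed repair (1.65, SE 0.51, adjusted p = 0.0816 by edgeR without a filter). The fibroblast marker sum in these macrophage libraries had medians of 16 CPM at day 5 and 55.3 CPM at day 14 after delayed repair, and 17.8 and 65.4 CPM after immediate repair.

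Igf2 in the Schwann fraction was at 0 in 6 of 9 delayed and 5 of 7 immediate day 5 libraries and in 1 of 7 and 2 of 8 day 14 libraries. It reached 39.1 CPM at day 14 after delayed repair and 11.7 CPM after immediate repair. Without a filter it was higher than in macrophages at day 14 (6.93, SE 1.25, adjusted p = 0.000193 by edgeR). The macrophage libraries held 0 to 0.200 CPM of Igf2 at day 14, so this fitted value rests on counts near 0 and is no measure of size. Igfbp2 was at 0 in all macrophage libraries and above 0 in the Schwann fraction of 5 of 15 animals at day 14, with a highest level of 2.05 CPM, and no fold is given for it.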
